A study of Homo sapiens with 12 samples.

Results

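The genes described here are 34 genes of mitosis, the stage in which a cell condenses its chromosomes, attaches them to a spindle of microtubules, pulls them apart and divides. They were taken by symbol from a list that holds the mitotic cyclins and CDK1, the kinases of mitosis, kinetochore and spindle proteins, the anaphase machinery and the proteins of cell division. All 34 were found once in the tables, among 62710 genes, and all 34 passed the filter on low counts, which left 18355 genes to test. The lowest count of any of them in any library was 125, for CENPE, and the highest was 14872, for TPX2.

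Total RNA was sequenced from 3 established hepatocellular carcinoma lines, HLF, SNU475 and PLC/PRF/5, each bought from a cell bank, and the labels name no genetic change. Before harvest one set of cells spent 24 h with lactate at 20 mM, given in the form of lactic acid, and the other cells are labelled control. Each line has 2 lactate and 2 control libraries, numbered 1 and 2 in the sample titles, which makes 12 libraries in 6 groups. The labels do not say whether the medium was neutralised. They also leave unsaid whether libraries 1 and 2 were grown as separate cultures, so every p-value measures the spread between these libraries only, which may be technical. In bulk RNA of this kind, fewer cells in mitosis and less RNA per mitotic cell cannot be told apart.

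Mitosis genes are silent for most of the cell cycle and are transcribed in G2 and M phase. The DREAM complex, which contains LIN54, holds their promoters off in resting cells and in G1, and MYBL2 and FOXM1 join the same LIN proteins to switch them on. LIN54 reads a short promoter element called the cell cycle genes homology region, or CHR, and the factor NF-Y binds CCAAT boxes that usually lie just upstream of it. Their transcripts are therefore used as a readout of how much of a culture is dividing, in liver cancer as in other tumours.

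The promoter windows of RefSeq (GRCh38.p14, from 250 bases before to 50 bases after the gene start) were matched for 29 of the 34 genes. AURKA, BIRC5, TPX2, TTK and UBE2C were not matched. The letters TTTGAA or TTTAAA, read on both strands and used here for the CHR, stood in the window of 25 of 29 mitosis genes (86.2%), of 3 of 28 DNA replication genes (10.7%) and of 27.9% of all 27305 genes in the table. Within the last 60 bases before the start and the first 40 after it they stood in 21 of 29 (72.4%), against 9.39% of all genes. The letters CCAAT, also on both strands, stood in 23 of 29 windows (79.3%), against 39.7% of all genes, and at least 2 of them in 15 of 29 (51.7%), against 12.9%. AURKB, BUB1, CCNA2 and SGO1 had no CHR match in this window. A match is a run of letters and not a shown binding site.

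Some of these promoters are printed because their genes carry the results below. CCNB1 and CCNB2 encode the B cyclins that activate CDK1, PLK1 encodes a kinase that acts throughout mitosis, CDC20 encodes an activator of the ubiquitin ligase that starts anaphase, and KIF20A encodes a kinesin of the central spindle, and these 5 followed the other mitosis genes across libraries. HMMR encodes a spindle protein, MKI67 encodes the proliferation antigen Ki-67, CENPE encodes a kinetochore kinesin, and these 3 had the weakest relation to the others. Each line runs 5′ to 3′ on the gene's own strand from 100 bases before the start to 20 bases after it, and capitals mark CHR and CCAAT matches. A CHR match and a CCAAT match overlap in 2 windows of the set.
CCNB1, chr5:69167050-69167169, plus strand: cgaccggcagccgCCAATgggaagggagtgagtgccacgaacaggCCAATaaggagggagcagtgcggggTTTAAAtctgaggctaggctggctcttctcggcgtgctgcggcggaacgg
CCNB2, chr15:59105046-59105165, plus strand: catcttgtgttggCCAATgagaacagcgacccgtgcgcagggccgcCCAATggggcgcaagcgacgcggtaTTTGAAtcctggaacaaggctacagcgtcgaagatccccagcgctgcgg
PLK1, chr16:23678789-23678908, plus strand: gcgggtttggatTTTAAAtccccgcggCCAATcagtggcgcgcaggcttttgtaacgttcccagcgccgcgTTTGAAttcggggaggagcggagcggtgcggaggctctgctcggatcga
CDC20, chr1:43358881-43359000, plus strand: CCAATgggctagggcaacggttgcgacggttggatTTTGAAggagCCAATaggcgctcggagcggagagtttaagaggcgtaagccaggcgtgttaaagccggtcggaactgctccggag
KIF20A, chr5:138179012-138179131, plus strand: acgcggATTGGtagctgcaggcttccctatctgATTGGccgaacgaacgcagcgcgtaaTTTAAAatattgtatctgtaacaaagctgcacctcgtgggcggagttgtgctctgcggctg
HMMR, chr5:163460532-163460651, plus strand: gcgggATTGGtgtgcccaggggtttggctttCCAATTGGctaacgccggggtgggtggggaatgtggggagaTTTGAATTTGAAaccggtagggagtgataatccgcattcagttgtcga
MKI67, chr10:128126404-128126523, minus strand: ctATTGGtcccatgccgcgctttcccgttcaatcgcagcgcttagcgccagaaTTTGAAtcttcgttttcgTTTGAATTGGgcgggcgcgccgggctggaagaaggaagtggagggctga
CENPE, chr4:103198324-103198443, minus strand: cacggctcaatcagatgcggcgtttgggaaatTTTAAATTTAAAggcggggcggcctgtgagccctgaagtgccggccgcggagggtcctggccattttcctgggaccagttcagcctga

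The CHR match nearest to the start lay 29 bases before it in CCNB2, PLK1 and MKI67, 30 in CCNB1, 41 in KIF20A and 65 in CDC20. HMMR had 2 adjoining matches, 28 and 22 bases before the start, and CENPE also had 2 adjoining ones, 68 and 62 bases before it. CHR letters were thus printed both in genes that followed the others and in genes with the weakest relation to them.

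**Figure D1:**
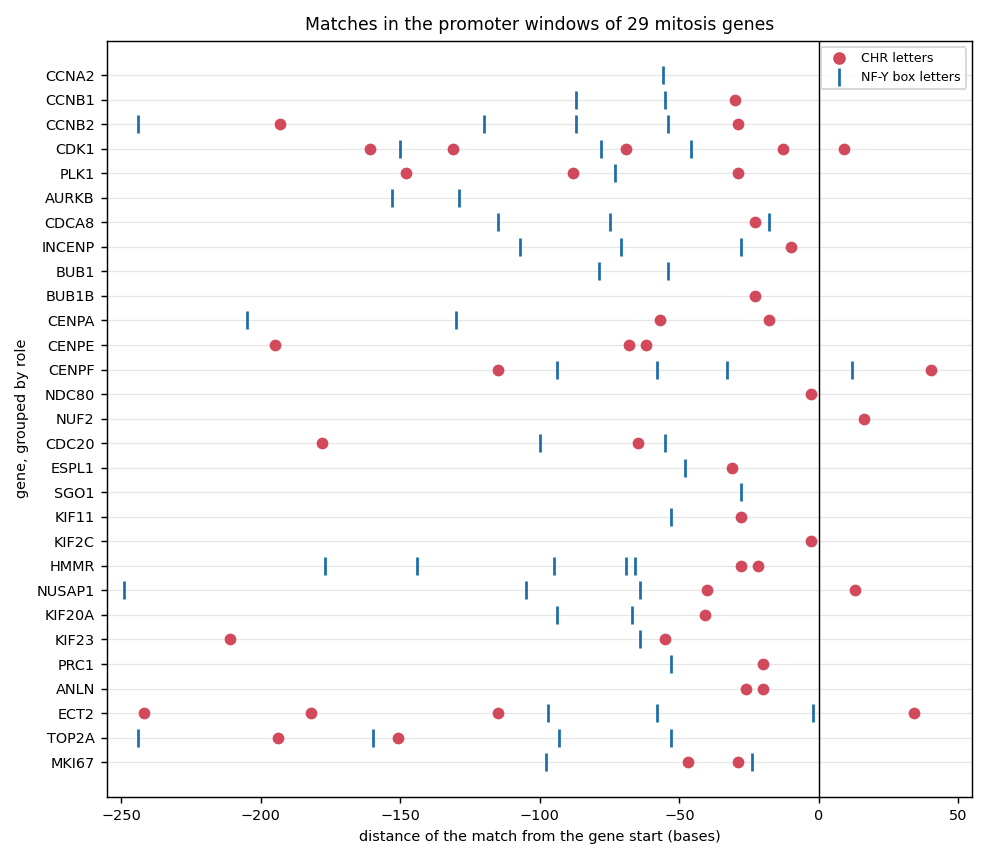
Distance of each match from the gene start, in bases, in the promoter windows of 29 mitosis genes, grouped by role. Circles are CHR matches, with the letters TTTGAA or TTTAAA, bars are CCAAT matches, marked as NF-Y box letters, and genes with more than 1 annotated start show the matches of each. In 21 of the 29 genes a circle lies between 60 bases before the start and 40 bases after it, and most bars lie upstream.

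Libraries held 16533437 to 22187849 counts. The share of counts from mitochondrial genes was 5.49% and 3.93% in HLF lactate against 9.52% and 3.39% in HLF control libraries, 8.50% and 13.9% in SNU475 lactate against 7.996% and 15.1% in SNU475 control libraries, and 6.21% to 7.08% in PLC/PRF/5. The hepatocyte genes ALB, APOA1, APOB, TTR and TF did not exceed 0.45 TPM in any HLF or SNU475 library and reached 7.18 TPM or more in every PLC/PRF/5 library, so HLF and SNU475 lacked these markers of the labelled tissue. Other hepatocyte genes did not split as cleanly. In HLF, FGB reached 11.9 TPM and SERPINA1 6.5 TPM, and in SNU475 AFP reached 5.02 TPM. In PLC/PRF/5 controls 1 and 2, AHSG had only 0.43 and 0.17 TPM. Of the immune genes looked at, PTPRC did not exceed 0.55 TPM and CD3E did not exceed 0.12 TPM in any library. CD68 ran from 24.7 to 161 TPM over the 12 libraries, and CD14 from 0.17 to 29.5 TPM, highest in SNU475 lactate library 1.

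With lactate, no mitosis gene was called in any line by the quasi-likelihood test of edgeR, which takes a gene as called at an adjusted p under 0.05 over all 18355 genes. Levels are given as CPM, which are counts scaled to library size, and as TPM, which are also divided by gene length. In HLF 19 of 34 were above their controls and the median log2 fold change was 0.02, in SNU475 24 of 34 were above and the median was 0.18, and in PLC/PRF/5 24 of 34 were below and the median was -0.20. Averaged over the lines with equal weights the median was 0.00, with 16 above and 18 below, and over all genes tested the medians were 0.00 in HLF, 0.01 in SNU475, 0.03 in PLC/PRF/5 and 0.03 for the average. The share of all genes called was 0.0% in each line, 0.42% for the average and 0.0% for the interaction of lactate with line, which called no mitosis gene. At an unadjusted p under 0.05 the numbers of mitosis genes were 0 in HLF, 2 in SNU475, 0 in PLC/PRF/5, 1 for the average and 1 for the interaction. DESeq2 called 0, 0, 0, 1 and 0 of them in the same order, the 1 being BIRC5. The gene at an unadjusted p under 0.05 for the interaction was HMMR. Here and below, counts at an unadjusted p are given without the share of all genes, and no excess is read from them. The median standard error of a single gene was 0.29 in each line, and the 95% intervals of the 34 genes reached from -1.21 to 1.14 on the log2 scale in HLF, from -1.75 to 1.37 in SNU475 and from -1.44 to 1.54 in PLC/PRF/5.

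**Figure D2:**
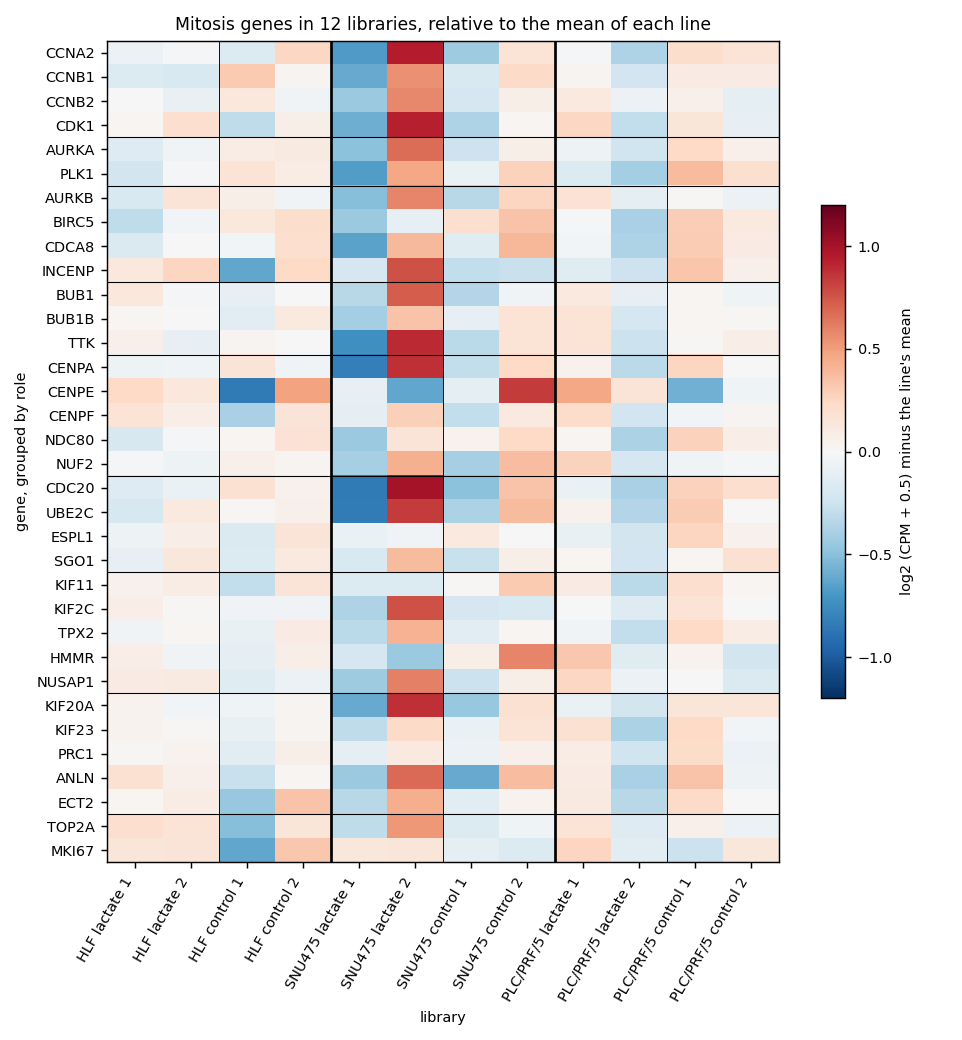
Level of each mitosis gene in each of 12 libraries, as log2 (CPM + 0.5) minus the mean of the 4 libraries of the same line, with genes in rows grouped by role and the lactate libraries left of the controls in each line. SNU475 lactate library 1 is blue and SNU475 lactate library 2 is red for most genes, and HLF control library 1 is blue for CENPE, INCENP and MKI67.

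BIRC5 was the 1 gene whose lactate libraries lay below both controls in every line. It encodes survivin, which belongs to the chromosomal passenger complex that corrects faulty attachments of chromosomes to the spindle, and it lies at chr17:78214186-78225636 (GRCh38, GENCODE 29). It had 166 and 201 CPM in HLF lactate libraries against 224 and 238 in HLF controls. It had 74.3 and 94.9 CPM in SNU475 lactate libraries against 116 and 129 in SNU475 controls. It had 149 and 115 CPM in PLC/PRF/5 lactate libraries against 186 and 164 in PLC/PRF/5 controls. Lactate and control libraries did not overlap in any of the lines, a pattern that 3.37% of all genes share. Over gene length the HLF gap is lost, with 109 and 124 TPM in lactate and 102 and 150 TPM in control libraries, while in SNU475 it was 39.1 and 36.2 against 58.7 and 51.2 TPM, and in PLC/PRF/5 110 and 78.3 against 119 and 112 TPM, again without overlap.

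The average log2 fold change of BIRC5 was -0.42 ± 0.12 (SE), and it did not pass in edgeR (adjusted p = 0.113). With library number within each line as a block it was -0.43 ± 0.09 and passed (edgeR adjusted p = 0.0165), in a fit that called 6.91% of all genes. DESeq2 also called it (-0.42 ± 0.12, adjusted p = 0.0144), where 5.32% of all genes were called. Leaving out both SNU475 libraries numbered 1 brought its edgeR adjusted p to 0.0398, and over all alternatives it ran from 0.0144 to 0.366.

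The other members of the chromosomal passenger complex did not share this pattern. AURKB, its kinase, had 89.9 and 114 CPM in HLF lactate libraries against 107 and 99.0 in the controls, and 77.8 and 63.6 CPM in PLC/PRF/5 lactate libraries against 69.7 and 65.5 in the controls, so the groups overlapped in both lines. CDCA8, which encodes borealin, lay below both controls in PLC/PRF/5, at 59.9 and 47.5 against 76.1 and 65.9 CPM. INCENP, the scaffold of the complex, had 72.1 and 142 CPM in SNU475 lactate libraries against 67.6 and 69.2 in the controls, and 53.6 and 50.1 CPM in PLC/PRF/5 lactate libraries against 75.3 and 62.0 in the controls. It was above both controls in SNU475 and below both in PLC/PRF/5. Its effects in these lines differed by -1.05 ± 0.45 (PLC/PRF/5 minus SNU475), which did not pass (edgeR adjusted p = 0.927).

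PLK1, the polo kinase, was lowest of all mitosis genes in PLC/PRF/5 by fold. It had 131 and 110 CPM in PLC/PRF/5 lactate libraries against 191 and 167 in the controls, and the groups did not overlap. It had 212 and 243 CPM in HLF lactate libraries against 277 and 263 in the controls, again without overlap. On TPM, PLK1 did overlap in HLF, at 163 and 181 in lactate libraries against 158 and 203 in the controls. In SNU475 it had 94.2 and 207 CPM in lactate libraries against 142 and 182 in the controls, and the lactate libraries lay on either side of the controls. Its log2 fold change in PLC/PRF/5 was -0.57 ± 0.30 and did not pass (edgeR adjusted p = 0.881). It passed when that line was fitted alone (-0.59 ± 0.13, edgeR adjusted p = 0.0399), a fit in which 3.7% of genes were called. Its average over lines, -0.31 ± 0.17 (edgeR adjusted p = 0.415), passed only without SNU475 lactate library 2 (-0.53 ± 0.12, adjusted p = 0.0417) and without both SNU475 libraries numbered 2 (-0.47 ± 0.11, adjusted p = 0.0354).

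In PLC/PRF/5, 12 of 34 mitosis genes (35.3%) had both lactate libraries below both controls, where 21.8% of all genes did. They were AURKA, PLK1, BIRC5, CDCA8, INCENP, NDC80, CDC20, ESPL1, TPX2, KIF20A, CCNA2 and CCNB1. On TPM, CCNB1 overlapped, at 266 and 201 in lactate libraries against 255 and 257 in controls. NDC80 overlapped too, at 55.3 and 37.1 against 57.9 and 52.5 TPM, and the rest stayed below both controls. CDC20 had 164 and 132 CPM in lactate libraries against 210 and 199 in the controls. AURKA, a kinase of the spindle poles, had 257 and 228 CPM against 317 and 279. CENPE was the 1 gene above both controls, at 36.3 and 29.2 against 17.4 and 25.3 CPM, where 28.5% of all genes were. None of these differences passed the test in the fit of all 12 libraries.

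By role, both genes of the group named mitotic kinases, PLK1 (-0.57) and AURKA (-0.30), had log2 fold changes below 0 in PLC/PRF/5, with the lowest median of any role, and neither passed the test. Other kinases among the 34 were placed in other roles. Of these, AURKB overlapped its controls in PLC/PRF/5, as did CDK1, at 213 and 146 against 198 and 167 CPM. All 5 genes of the central spindle and cytokinesis had a log2 fold change below 0 in PLC/PRF/5 (median -0.21), and so did all 4 genes of anaphase and chromatid separation (median -0.30). The 3 checkpoint kinases stood near 0, with 0.03 ± 0.28 for BUB1, -0.03 ± 0.24 for BUB1B and -0.08 ± 0.39 for TTK. UBE2C, an anaphase gene, had 106 and 80.2 CPM in PLC/PRF/5 lactate libraries against 126 and 102 in the controls, and the groups overlapped. PLC/PRF/5 lactate library 2 was the lowest of the line's 4 for 29 of 34 genes. The line's median of -0.20 was -0.03 without that library, -0.35 without lactate library 1, -0.10 without control 1 and -0.29 without control 2. The albumin transcript ALB also differed by library in this line, at 44.5 and 107 TPM in lactate libraries 1 and 2 against 19.6 and 63.2 TPM in controls 1 and 2, and its part in the mitosis values was not tested.

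In HLF, 8 mitosis genes (23.5%) lay below both controls on CPM, where 19.9% of all genes did, and 4, ANLN, TOP2A, NUSAP1 and KIF2C, lay above both, where 19.6% did. On TPM, CCNB1 alone of the 8 stayed below both controls, at 401 and 384 against 423 and 453. CENPA lay above both on TPM, at 57.4 and 53.5 against 47.7 and 52.0, and the rest of the 8 overlapped. ANLN and NUSAP1 stayed above both on TPM, while TOP2A and KIF2C overlapped. CCNB1 had 367 and 362 CPM in lactate libraries against 511 and 420 in the controls. TOP2A, the topoisomerase that untangles chromosomes, had 553 and 537 CPM against 337 and 529. MKI67 had 455 and 458 CPM in lactate libraries, between the controls at 267 and 515. HLF control library 1 was the lowest of the line's 4 libraries for 21 of 34 genes. The line's median of 0.02 was -0.06 without that library, 0.12 without control 2 and -0.01 when effective lengths entered the fit.

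That control library also differed from its partner by gene length. Across the 34 genes, the log2 ratio of HLF control 2 to control 1 followed log2 effective length with r = 0.74, and so did the ratio of lactate 1 to control 1 (r = 0.74), while for lactate 2 against control 2 r was -0.39. These correlations are across genes, which are not independent replicates, and the first and second share control 1. Among all genes that averaged 30 CPM or more, the median log2 ratio of HLF lactate 1 to control 1 was 0.41 in the 1251 genes longer than 4000 bases and -0.41 in the 918 genes under 1000 bases. The part of this in the values of long mitosis genes such as CENPE, MKI67 and CENPF was not tested.

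In SNU475 the libraries numbered 1 and those numbered 2 went opposite ways. Set against the control of the same number, lactate library 1 had 26 of 34 mitosis genes lower and 8 higher (median log2 ratio -0.20), and lactate library 2 had 27 higher and 7 lower (median 0.33). Of the 34 genes, 20 (58.8%) were lower in number 1 and higher in number 2, against 16.5% of all genes. Lactate library 2 was the highest of the line's 4 for 27 genes, and lactate library 1 was the lowest for 25. Summed over the 34 genes the level was 3262 and 6609 CPM in lactate libraries 1 and 2 against 3727 and 4951 CPM in controls 1 and 2, so the lactate libraries lay outside the controls on both sides.

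**Figure D3:**
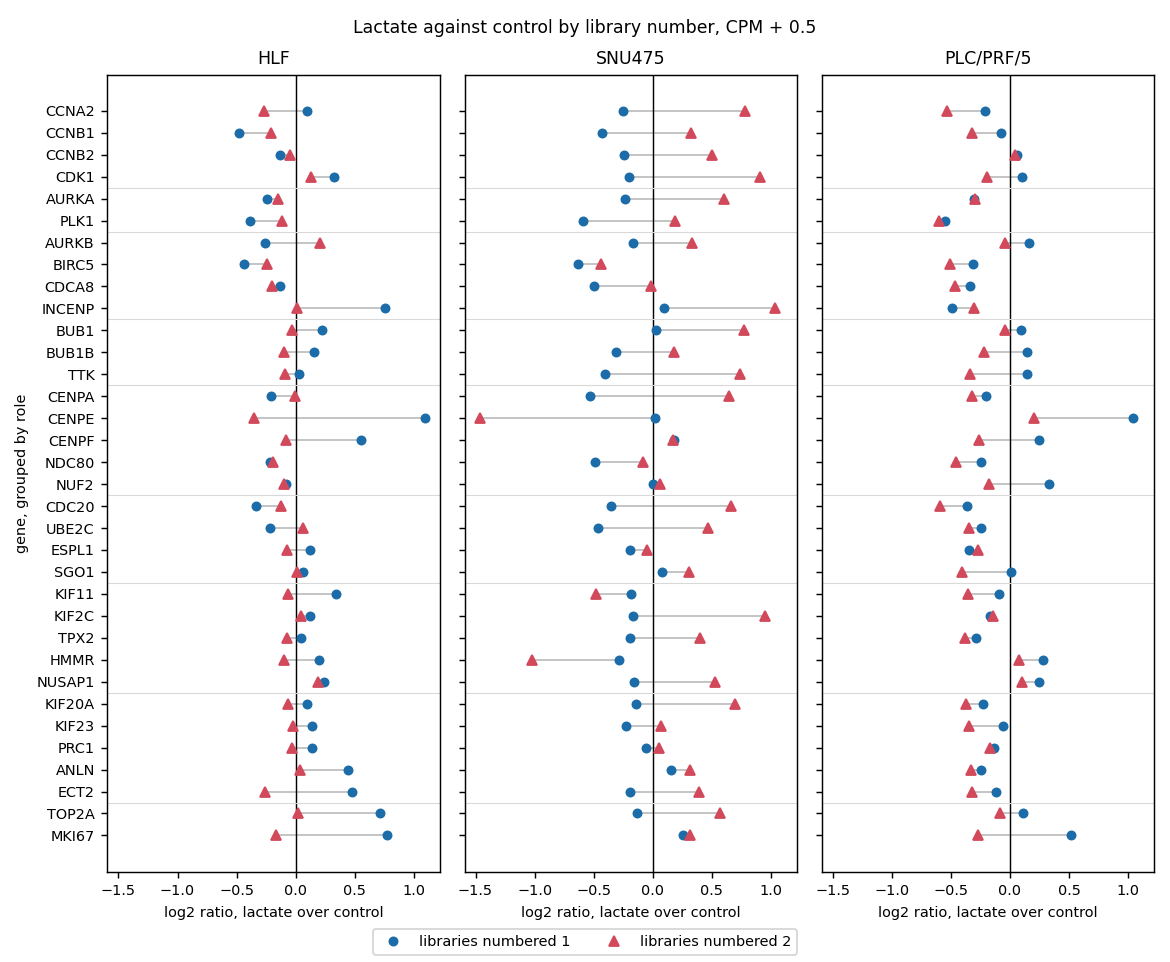
Log2 ratio of lactate to control, on CPM + 0.5, for each mitosis gene by library number, with circles for the libraries numbered 1, triangles for those numbered 2 and a panel for each line. In SNU475 most circles lie below 0 and most triangles above it, with CENPE and HMMR far to the left in number 2, while in PLC/PRF/5 both lie mostly below 0.

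CDC20 had 156 and 563 CPM in SNU475 lactate libraries 1 and 2 against 200 and 356 in controls 1 and 2. CDK1, the kinase that drives entry into mitosis, had 116 and 332 CPM against 134 and 177. KIF20A had 113 and 317 CPM against 125 and 195. In each of these genes lactate library 1 was the lowest and lactate library 2 the highest. In number 1 no gene was over 1.5-fold higher with lactate, where 8.88% of all genes were, and 2, PLK1 and BIRC5, were over 1.5-fold lower, where 5.35% were. In number 2, 10 genes (29.4%) were over 1.5-fold higher, where 16.1% of all genes were, and 2 were over 1.5-fold lower, where 18.1% were.

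The 10 higher genes of number 2 came from most roles. The ratio of lactate to control was 2.05 (95% interval 1.91 to 2.21) for INCENP, 1.94 (1.82 to 2.07) for KIF2C, a microtubule-depolymerising kinesin, and 1.88 (1.79 to 1.96) for CDK1. It was 1.71 (1.61 to 1.82) for BUB1 and 1.67 (1.55 to 1.79) for TTK, both kinases of the spindle checkpoint. CCNA2, KIF20A, CDC20, CENPA and AURKA completed the set. These are exact binomial intervals for counting error only, with 1 library in each arm, and they do not cover differences between cultures.

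CENPE and HMMR went the other way in number 2. Their effective lengths averaged 7973 and 2323 bases over the 12 libraries. CENPE had 12.5 and 8.48 CPM in lactate libraries 1 and 2 against 12.3 and 24.3 in controls 1 and 2, and its ratio in number 2 was 0.349 (0.284 to 0.427). HMMR had 44.9 and 38.2 CPM against 54.8 and 78.2, and its ratio in number 2 was 0.488 (0.442 to 0.539). HMMR lay below both controls, as did BIRC5, ESPL1 and KIF11, which makes 4 genes (11.8%) where 15.4% of all genes did. MKI67 and INCENP lay above both, where 16.2% of all genes did. The log2 fold change of HMMR in SNU475 was -0.68 ± 0.23 (edgeR adjusted p = 0.308), and that of BIRC5 was -0.53 ± 0.20 (adjusted p = 0.336).

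The median for SNU475, 0.18, rests on lactate library 2. Without control 1 it was 0.00 and without control 2 it was 0.36. Without lactate library 2 the median was -0.42, with no call, and without lactate library 1 it was 0.50, with 10 mitosis genes called higher by edgeR where 4.37% of all genes were. These 10 were AURKA, BUB1, CCNA2, CDC20, CDK1, CENPA, INCENP, KIF20A, KIF2C and TTK, with log2 fold changes between 0.76 and 1.09, and the lone lactate library was there assumed to vary like the other groups. Without both libraries numbered 1, BUB1 (0.76) and KIF2C (0.94) were called higher and HMMR (-1.05) lower. Both directions are thus values of single lactate libraries.

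Genes of DNA replication, a list of 31 S-phase genes, did not follow the 34 mitosis genes into SNU475 lactate library 2. A wider list of 125 other genes of mitosis and its transcription, described below, was split in number 2. In number 1, 95 of the 125 were lower with lactate (median log2 ratio -0.19). In number 2, 60 of the 125 were higher with lactate and 65 lower (median log2 ratio -0.025). Over 1.5-fold, 14 (11.2%) were higher, where 16.1% of all genes were, and 30 (24.0%) were lower, where 18.1% were. Summed, the wider list stood at 7860 and 11170 CPM in lactate libraries 1 and 2 against 8698 and 10480 CPM in controls 1 and 2. Its lactate libraries thus also lay outside the controls on both sides. From lactate library 1 to lactate library 2, 92 of the 125 rose (median log2 ratio 0.35). Of the 125, 31.2% rose over 1.5-fold, where 17.2% of all genes did, and 8.0% fell as far, where 23.8% did. In number 2, 30 of 31 replication genes were lower with lactate (median log2 ratio -0.64), 18 of them by over 1.5-fold, and in number 1 28 of 31 were lower (median -0.21). Their summed level was 2301 and 2274 CPM in lactate libraries 1 and 2 against 2761 and 3248 CPM in controls 1 and 2. In the fit of all libraries edgeR called none of them in SNU475, with 11 at an unadjusted p under 0.05, and DESeq2 called 1, CDC6, which is named after its value was seen. For the average over lines edgeR called none (15 at an unadjusted p under 0.05), DESeq2 called 8 lower (25.8%, where 5.32% of all genes were called) and the fit with the block called 11 lower (35.5%, where 6.91% were). Differences between the lists were not tested. Other values differed by number too: the epithelial keratin KRT8 had 4630 and 2650 TPM in lactate libraries 1 and 2 against 4780 and 2100 TPM in controls 1 and 2, and the mitochondrial share was 8.50% and 13.9% against 7.996% and 15.1%. Their part in the mitosis values was not tested.

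**Figure D4:**
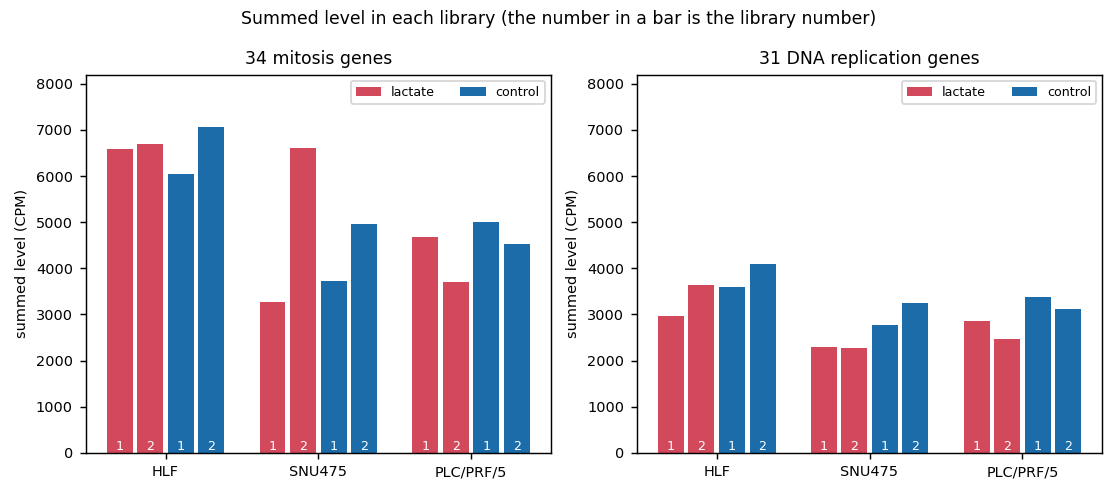
Summed CPM of the 34 mitosis genes and of 31 DNA replication genes in each library, with lactate bars left of control bars and the library number inside each bar. SNU475 lactate library 2 stands at 6609 CPM for mitosis genes, against 3262 CPM in lactate library 1, while both stand near 2300 CPM for replication genes.

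Most of the 34 genes varied together across libraries. After the mean of each line was taken out of the log2 CPM, CCNA2 followed the median of the other mitosis genes with r = 0.97 over the 12 libraries and UBE2C with r = 0.96. In all, 26 of 34 genes had r of 0.7 or more. BIRC5 (0.42), KIF11 (0.37), ESPL1 (0.27), MKI67 (0.14), HMMR (0.03) and CENPE (-0.10) had the lowest values. Of these, KIF11 (4720 bases), ESPL1 (4574), MKI67 (9071) and CENPE (7973) have effective lengths over 4000 bases, as does CENPF (4565 bases, r = 0.69). BIRC5 (2213 bases) and HMMR (2323) are shorter. The part of length in these values of r was not tested. The 12 points share lines and the scaling of each library, and the SNU475 lactate libraries are the farthest apart, so r is a description only.

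In HLF the summed level of the mitosis genes was 6579 and 6704 CPM in lactate libraries against 6048 and 7068 CPM in controls. In PLC/PRF/5 it was 4682 and 3698 CPM in lactate libraries against 5005 and 4519 CPM in controls. Lactate and control libraries overlapped in both lines. No mitosis gene had both lactate libraries above both controls in every line, where 2.72% of all genes did.

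Between untreated lines 31 differences of mitosis genes passed the test, against none with lactate. Genes in general showed the same contrast. Of all genes, 39.0% to 48.7% were called between untreated lines and 0.0% with lactate in each line. In untreated PLC/PRF/5 the most abundant by TPM were UBE2C (332), which encodes the enzyme that loads ubiquitin for the anaphase ligase, AURKA (285) and CCNB1 (256). In untreated HLF they were CCNB1 (438), UBE2C (435) and CDC20 (343), and in untreated SNU475 UBE2C (334), CDC20 (215) and CCNB1 (174). CENPE was the lowest in all 3, at 3.91 TPM in PLC/PRF/5, 8.15 in HLF and 2.12 in SNU475. In HLF the neighbours CCNB1 and UBE2C could not be ordered, with 423 and 453 against 372 and 499 TPM in the 2 controls.

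**Figure D5:**
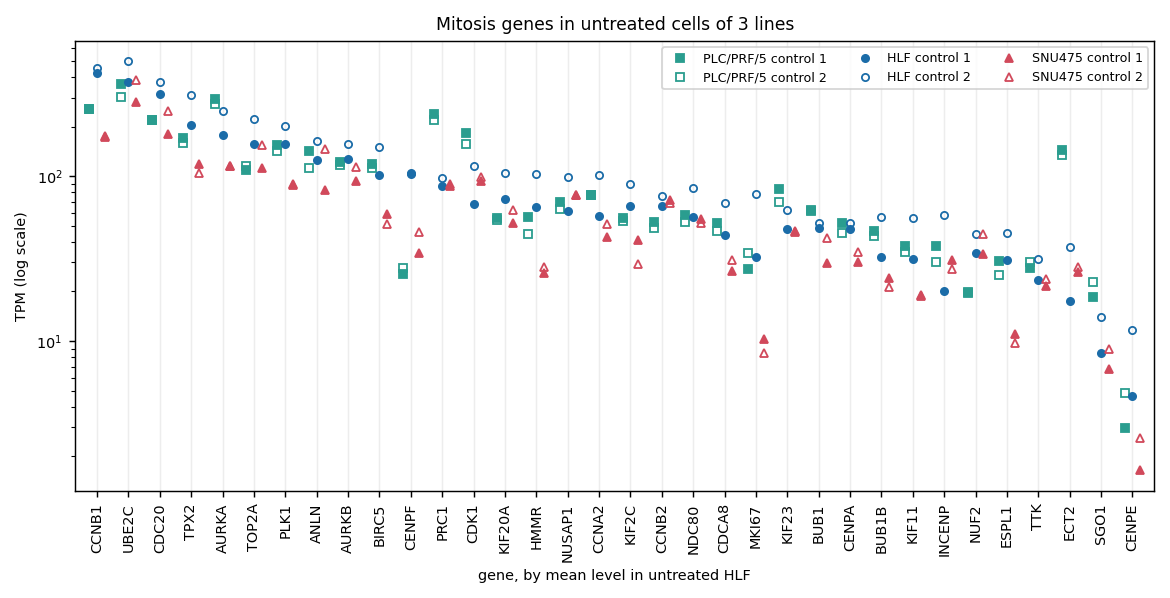
TPM of each mitosis gene in the 2 untreated libraries of PLC/PRF/5 (squares), HLF (circles) and SNU475 (triangles), on a log axis, with genes ordered by their mean in HLF. ECT2 and PRC1 stand high in PLC/PRF/5, MKI67 and ESPL1 low in SNU475, and CENPF high in HLF.

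Untreated PLC/PRF/5 had 2 mitosis genes higher and 11 lower than untreated HLF, 38.2% of them in all, where 43.0% of all genes were called, 21.7% higher and 21.3% lower. Their median log2 fold change was -0.56, and -0.37 without HLF control 2. ECT2, which activates RhoA at the division site, had 334 and 284 CPM in PLC/PRF/5 against 50.9 and 88.9 in HLF (2.14 ± 0.31, edgeR adjusted p = 0.000185). PRC1, which bundles the microtubules of the central spindle, had 280 and 229 CPM against 108 and 124 (1.13 ± 0.19, edgeR adjusted p = 0.000578). PRC1 shares 3181 exon bases on the same strand with AC068831.7, which took 2594 counts over the 12 libraries where PRC1 took 37779, so reads could be split between them. The other 3 genes of the central spindle and cytokinesis, KIF20A, KIF23 and ANLN, did not pass.

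The 11 lower genes included 4 of the 5 centromere and kinetochore genes. CENPF, a large protein of the outer kinetochore, had 98.4 and 103 CPM in PLC/PRF/5 against 279 and 408 in HLF (-1.77 ± 0.25, edgeR adjusted p = 0.000154). NUF2, a subunit of the complex that holds microtubule ends, had 21.5 and 22.0 CPM against 52.6 and 51.7 (-1.26 ± 0.31, edgeR adjusted p = 0.00633). NDC80, its partner in that complex, had 72.4 and 63.0 CPM against 101 and 112 (-0.66 ± 0.23, edgeR adjusted p = 0.0361), and CENPE was also lower (-1.22 ± 0.43, adjusted p = 0.0368). CENPE rested on HLF control 2, without which it was -0.39 (edgeR adjusted p = 0.495), and its call was also lost without any of 6 other single libraries. The others were CCNB1, CCNB2, HMMR, MKI67, TPX2, KIF2C and ESPL1, with log2 fold changes between -1.05 and -0.64. MKI67 (-0.94) also rested on HLF control 2, without which it was -0.39 (edgeR adjusted p = 0.23). Only CENPF and NUF2 among the 11 kept their call whichever 1 of the 12 libraries was left out. HMMR (-0.87) and TPX2 (-0.84) lost theirs without PLC/PRF/5 control 2, and ESPL1 without that library (-0.53) or HLF control 2 (-0.46). Over the left-out libraries that ended the call, CCNB1 was between -1.05 and -0.86, CCNB2 between -0.84 and -0.63, KIF2C between -0.89 and -0.71 and NDC80 between -0.76 and -0.56. MKI67 also lost its call without PLC/PRF/5 control 1 (-0.76). Fewer mitosis genes were called without HLF control 2 or without either PLC/PRF/5 control. More were called without either SNU475 lactate library, which enters this comparison only through the shared estimate of spread. The share of all genes called in those fits is not given here, so no change particular to mitosis genes is read from them.

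Untreated HLF had 10 mitosis genes higher and none lower than untreated SNU475, 29.4% of them, where 39.0% of all genes were called, 17.2% higher and 21.9% lower. DESeq2 also called 10 higher and 0 lower, where it called 40.4% of all genes. The median log2 fold change was 0.43, with 26 of 34 above 0. MKI67 had 267 and 515 CPM in HLF against 80.3 and 77.6 in SNU475 (2.31 ± 0.29, edgeR adjusted p = 9.4e-05). ESPL1, the protease separase that cuts the cohesin between sister chromatids, had 118 and 148 CPM against 49.3 and 45.6 (1.49 ± 0.18, edgeR adjusted p = 8.42e-05). Among the 5 spindle motor and microtubule genes 4 were higher, namely HMMR (1.27 ± 0.23), KIF2C (0.94 ± 0.29), TPX2 (0.94 ± 0.23), which targets AURKA to the spindle, and KIF11 (0.93 ± 0.21), the kinesin that separates the spindle poles. CENPF, BIRC5, CENPE and CCNB1 completed the set. CENPE (1.45) was 0.62 without HLF control 2 (edgeR adjusted p = 0.28) and 1.04 without SNU475 control 1 (edgeR adjusted p = 0.127). CCNB1 (1.04) was 0.86 without HLF control 1 (edgeR adjusted p = 0.119) and 0.85 without SNU475 control 1 (edgeR adjusted p = 0.115), and KIF2C lost its call without any 1 of the 4 control libraries, at 0.92 to 0.94. None of the 5 genes of the central spindle and cytokinesis had an unadjusted p under 0.05 in edgeR. The median was 0.22 without SNU475 control 1 and 0.69 without SNU475 control 2.

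Untreated PLC/PRF/5 had 5 mitosis genes higher and 3 lower than untreated SNU475, 23.5% of them, where 48.7% of all genes were called, 22.4% higher and 26.3% lower. The higher ones were ECT2 (1.94 ± 0.30), MKI67 (1.37 ± 0.28), PRC1 (1.09 ± 0.19), SGO1 (0.93 ± 0.26), the protector of centromeric cohesin, and ESPL1 (0.85 ± 0.18). The lower ones were NUF2 (-1.58 ± 0.31), CCNB2 (-1.01 ± 0.28) and NUSAP1 (-0.80 ± 0.28), a microtubule-bundling protein. SGO1 lost its call without SNU475 control 1 (0.77) or PLC/PRF/5 control 2 (0.85), CCNB2 without SNU475 control 2 (-0.86) or PLC/PRF/5 control 2 (-0.92), and NUSAP1 without any of 5 single libraries, at -0.89 to -0.61. Fewer mitosis genes were called without PLC/PRF/5 control 2 and more without either SNU475 lactate library, and the share of all genes called in those fits is not given here. These comparisons share controls, so ECT2, PRC1 and NUF2 in PLC/PRF/5 are 1 set of libraries read against HLF and SNU475.

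The wider list, 125 genes outside the 34, had 0 genes called with lactate in any line by edgeR. It held genes of CDK1 regulation, the anaphase ligase, cohesion, condensins, the kinetochore, the checkpoint, the spindle and cytokinesis. It also held genes for the transcription of mitosis genes, among them FOXM1, MYBL2, LIN54 and the subunits of NF-Y, so its values are not those of mitosis proteins alone. At an unadjusted p under 0.05 there were 6 in HLF, 22 in SNU475, 5 in PLC/PRF/5 and 30 for the average, again without the share of all genes at that p. DESeq2 called 0 in HLF, 3 lower in SNU475, namely CENPN, CENPU and ZWINT (where it called 1.49% of all genes), 0 in PLC/PRF/5 and 15 for the average (where it called 5.32% of all genes), of which 14 were lower. With library number as a block edgeR called 16 for the average (12.8%, where it called 6.91% of all genes), of which 15 were lower. The medians were -0.05 in HLF, -0.05 in SNU475, -0.15 in PLC/PRF/5, where 100 of 125 were below 0, and -0.08 for the average. Within the list, the 33 further centromere, kinetochore and checkpoint genes had a median of -0.31 in SNU475, with 27 below 0, against a median of 0.04 for the 5 centromere and kinetochore genes among the 34.

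FOXM1, the factor that switches mitosis genes on in G2, had 83.9 and 75.1 CPM in PLC/PRF/5 lactate libraries against 129 and 115 CPM in the controls, and the groups did not overlap. Its log2 fold change there was -0.62 ± 0.20 (edgeR adjusted p = 0.625), and its average over lines was -0.44 ± 0.11 (adjusted p = 0.104). In SNU475 it had 62.6 and 56.8 CPM in lactate libraries 1 and 2 against 74.5 and 95.7 CPM in controls 1 and 2, so it was lowest in the library in which most of the 34 genes were highest. MYBL2 had 275 and 254 CPM in SNU475 lactate libraries against 323 and 325 CPM in the controls, without overlap, whereas on TPM, at 135 and 91.5 against 151 and 121, the groups overlapped. It averaged -0.18 ± 0.14 over lines (edgeR adjusted p = 0.565). LIN54 did not pass in any line, with an average of 0.01 ± 0.16.

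Between untreated lines the wider list had 41 calls (32.8%) for PLC/PRF/5 against HLF, 34 (27.2%) for HLF against SNU475 and 42 (33.6%) for PLC/PRF/5 against SNU475, all lower shares than over all genes. The smallest p-values for PLC/PRF/5 against HLF belonged to CENPU (-2.83 ± 0.27), a centromere protein, SPDL1 (-2.06 ± 0.23), CDC25B (-1.43 ± 0.18), a phosphatase that activates CDK1, TACC3 (-1.66 ± 0.22) and CLASP2 (1.75 ± 0.23). For HLF against SNU475 they belonged to NCAPD2 (1.31 ± 0.17), a condensin subunit, SPAG5 (1.28 ± 0.17), CIT (1.44 ± 0.22), CKAP5 (1.34 ± 0.20) and KIF22 (1.29 ± 0.22). For PLC/PRF/5 against SNU475 they belonged to CENPU (-2.16 ± 0.26), ANAPC1 (2.27 ± 0.28), a subunit of the anaphase ligase, CLASP2 (1.81 ± 0.23), PMF1 (-1.42 ± 0.20) and CDC25B (-1.28 ± 0.18). MYBL2 was higher in PLC/PRF/5 than in HLF (1.30 ± 0.24) and lower in HLF than in SNU475 (-0.86 ± 0.24). FOXM1 was higher than in SNU475 both in HLF (0.93 ± 0.20) and in PLC/PRF/5 (0.52 ± 0.20, edgeR adjusted p = 0.047).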

How the data were processed

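Directional libraries of total RNA were made from 12 samples, per the labels' protocols. FastQC, STAR, RSEM and DESeq2 are named, without versions, in the submitters' processing notes. The builds listed there, GRCm38 and mm10, are those of the mouse, although all 62757 identifiers are human. The human build is not given in the sources used here, nor is the strand setting of the counting. The authors deposited RSEM expected counts, TPM and effective lengths per gene, per the file headers. The 47 second copies of genes on both sex chromosomes were summed with the first.

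Expected counts were rounded, filtered with filterByExpr and scaled by TMM. edgeR 4.0.16 (R 4.3.3) fitted all 12 libraries as 6 groups with 6 residual degrees of freedom (biological coefficient of variation 0.26), with Benjamini-Hochberg adjustment over 18355 genes and calls at an adjusted p under 0.05. The average effect weights the 3 lines equally. CPM use TMM-scaled library sizes, and ratios by library number add 0.5 CPM. Levels of different genes were compared as TPM. DESeq2 1.42.0, other scaling, no filter, length offsets, a block for library number, lines fitted alone and fits without libraries were alternatives. The fits were tested on simulated data.

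Libraries were numbered as in their titles, and what a shared number stands for is not stated in the labels. The PLC/PRF/5 libraries numbered 2 there carry another number in their deposited names. Deviations of same-numbered libraries had a correlation of 0.446 for SNU475, 0.132 for PLC/PRF/5 and 0.101 for HLF, and the numbers were therefore treated as pairing libraries in the alternative with a block.

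The genes and the gene lists were chosen with earlier results of these data known. All 34 mitosis genes could be named. Of the wider list, each gene called was to be named where they were 5 or fewer, otherwise the 5 with the smallest p, and always FOXM1, MYBL2 and LIN54. DNA replication genes are given as counts and medians. CENPN, CENPU and ZWINT were named for SNU475 after their values were seen. Gene positions are those of GENCODE 29 (GRCh38), and promoter sequences are RefSeq's (GRCh38.p14).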

Additional observations from a re-analysis of the deposited data

How the results depend on the processing

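No gene value of the 34 mitosis genes reversed a call under any alternative that applied to it, and 16 of the 31 calls between untreated lines held under all that applied to them. There were 23 alternatives in all, some of which concerned only the SNU475 medians by library number. With library number as a block (replicate block) 1 mitosis gene was called for the average lactate effect, BIRC5, and the block changed no other call of the 34. No paired fit exists for the contrasts between untreated lines. DESeq2 also called 1 gene for the average, and 1 was called there without both SNU475 libraries numbered 1 and 1 without both numbered 2. In PLC/PRF/5 1 gene was called when the line was fitted alone, and in SNU475 3 were called without both libraries numbered 1. Without both libraries numbered 1, HLF against SNU475 had a median of 0.196, PLC/PRF/5 against HLF had 22 calls, and PLC/PRF/5 against SNU475 had 14 calls and a median of -0.037. Without both libraries numbered 2, HLF against SNU475 had 20 calls and a median of 0.667, PLC/PRF/5 against HLF had 21 calls, and PLC/PRF/5 against SNU475 had a median of 0.405. The share of all genes called in the fits without both SNU475 libraries of a number is not given here. No change particular to mitosis genes is therefore read from their counts of calls. The cause was not tested.

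Leaving out each library in turn, with a lone library assumed to vary like the other groups, gave 0 to 0 calls with lactate in HLF (medians -0.057 to 0.118), 0 to 10 in SNU475 (-0.418 to 0.496), 0 to 0 in PLC/PRF/5 (-0.354 to -0.034), 0 to 1 for the average (-0.147 to 0.120) and 0 to 0 for the interaction. It gave 7 to 15 calls for HLF against SNU475 (0.224 to 0.694), 5 to 21 for PLC/PRF/5 against HLF (-0.639 to -0.367) and 5 to 13 for PLC/PRF/5 against SNU475 (-0.032 to 0.401). These ranges of calls are also given without the share of all genes called in each fit. The medians by library number in SNU475 were -0.130 and 0.318 on TPM.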
